A study of Homo sapiens with 12 samples.

Results

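FUT1 and KLHDC7B are 2 of the 19923 protein-coding genes counted in 12 RNA sequencing libraries of human neuroblastoma cells. They were selected on their fall with STM2457, since they are among the genes with the steepest decrease in both lines studied. STM2457 is a small molecule that inhibits METTL3, the catalytic subunit of the enzyme that writes N6-methyladenosine into messenger RNA. SK-N-BE2 and NGP, established neuroblastoma lines with amplified MYCN and labelled as wild type, each received STM2457 or the solvent DMSO for 6 days, with 3 replicates per group. SK-N-BE2 cells received 12 µM STM2457 and NGP cells received 1 µM, and the file headers name a different sequencing run for each line. Differences between the lines therefore cannot be told apart from those of dose or run. Nothing in the labels says whether replicates were separate cultures, so p-values measure only the spread between these libraries, which may be technical.

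FUT1 encodes the fucosyltransferase that caps terminal galactose with fucose, taken from the donor GDP-fucose, and so makes the H antigen, on which the A and B blood group sugars are built. KLHDC7B encodes a protein with kelch repeats, which fold into a beta-propeller, and its own function is little defined. Several other KLHDC proteins are substrate receptors of cullin-RING ubiquitin ligases. FUT1 lies on the minus strand at chr19:48748011-48755390 and KLHDC7B on the plus strand at chr22:50545899-50551023 (GENCODE 33 annotation, hg38). FGF21, which encodes a secreted metabolic hormone, lies next to the start of FUT1, with 133 bases between the annotated gene bodies, and is read in the opposite direction.

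The promoter windows of both genes are shown because FUT1 and FGF21 share most of theirs and because both windows hold the same short motif. Each runs from 250 bases before a RefSeq transcription start to 50 bases after it (GRCh38.p14), and capitals mark a match to TGATGNAA, the core of the C/EBP-ATF response element.
FUT1, chr19:48755309-48755608, minus strand: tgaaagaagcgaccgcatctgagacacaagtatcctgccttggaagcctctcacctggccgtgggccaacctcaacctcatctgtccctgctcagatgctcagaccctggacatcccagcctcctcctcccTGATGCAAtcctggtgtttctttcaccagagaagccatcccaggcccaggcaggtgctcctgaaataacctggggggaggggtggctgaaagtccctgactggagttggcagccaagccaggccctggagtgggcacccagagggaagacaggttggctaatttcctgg
KLHDC7B, chr22:50545649-50545948, plus strand: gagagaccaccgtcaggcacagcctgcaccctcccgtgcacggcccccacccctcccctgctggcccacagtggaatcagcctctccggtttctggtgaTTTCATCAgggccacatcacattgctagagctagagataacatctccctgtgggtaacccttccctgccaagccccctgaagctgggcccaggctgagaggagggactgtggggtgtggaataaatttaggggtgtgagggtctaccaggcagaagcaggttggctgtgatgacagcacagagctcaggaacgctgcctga
In FUT1 the match reads TGATGCAA and lies 119 bases before the start. The FGF21 window shares 265 bases with it, so the same bases lie 54 bases before the FGF21 start, on the opposite strand. In KLHDC7B the match lies 151 bases before the start and reads TGATGAAA on the opposite strand, which is the capital stretch read backwards with complementary bases. A second FUT1 window, at chr19:48752592-48752891, held no match. Both strands were searched for TGATGNAA, TGACGTCA, CACGTG and CCAAT, and no letters of the other motifs were found in these windows. Among 35116 RefSeq promoter windows of this length, 3.62% held TGATGNAA, 1.85% TGACGTCA, 7.26% CACGTG and 34.6% CCAAT. A match describes letters only, and binding was not measured.

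Each library held 47242379 to 58159937 reads assigned to genes. Levels are given as counts scaled to library size (CPM, by TMM-scaled library sizes) on a common scale for the 12 libraries, and per kilobase of exon where genes are compared. PHOX2A, HAND2, GATA3, ISL1, DBH and MYCN, which mark neuroblastoma of the adrenergic type, were read in every library. TH, the enzyme that starts catecholamine synthesis, was near 0 in NGP (mean 0.512 CPM with DMSO). Of the markers of other cells, PTPRC, EPCAM, CDH1, PECAM1 and TWIST2 did not pass 2.45 CPM in any library and PRRX1 had means of 15.7 and 18.5 CPM in NGP with DMSO and STM2457 and was near 0 in SK-N-BE2. COL1A1 went from a mean of 8.41 to 18.4 CPM for SK-N-BE2 and from 29.8 to 124 CPM for NGP with STM2457, and its part in the results was not tested. METTL3, the target of the compound, rose in both lines, from 54.0 ± 3.26 to 79.5 ± 1.43 CPM in SK-N-BE2 (SD, n = 3, edgeR adjusted p = 0.000106) and from 40.4 ± 3.59 to 77.7 ± 2.46 CPM in NGP (adjusted p = 0.0003). An inhibitor acts on the protein, so the METTL3 level is no check of the labels. In these bulk libraries fewer cells that express a gene and less RNA per cell cannot be told apart.

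FUT1 was a moderately expressed gene in DMSO and was left with little more than 1% of that level after STM2457. In SK-N-BE2 it had 1557, 2000 and 1649 reads with DMSO against 17, 24 and 26 with STM2457, which is 27.2, 40.3 and 31.5 CPM against 0.314, 0.469 and 0.495 CPM. In NGP it had 3697, 3202 and 3788 reads with DMSO against 34, 57 and 44 with STM2457, which is 73.4, 62.6 and 73.7 CPM against 0.726, 1.22 and 0.868 CPM. All 6 treated libraries lay far below all 6 controls. The group means were 33 ± 6.64 and 0.426 ± 0.0978 CPM for SK-N-BE2 and 69.9 ± 6.29 and 0.938 ± 0.254 CPM for NGP (SD, n = 3). The log2 fold change was -6.31 (SE 0.21) for SK-N-BE2 and -6.24 (SE 0.20) for NGP. Because these contrasts chose the gene, they are a description and carry no test. By group mean CPM, 1.29% of the DMSO level was left for SK-N-BE2 and 1.34% for NGP. By summed reads scaled to library size, the ratio of DMSO to STM2457 was 77.1 (95% exact interval 60.6 to 99.6) and 74.7 (63.0 to 89.2). These intervals cover counting error only, and both mates of a read pair could be counted, so they are narrower than an interval over fragments.

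KLHDC7B lost a larger share of its level. In SK-N-BE2 it had 970, 763 and 965 reads with DMSO against 4, 2 and 2 with STM2457, which is 17.0, 15.4 and 18.4 CPM against 0.0739, 0.0391 and 0.0381 CPM. In NGP it had 3458, 4107 and 3316 reads with DMSO against 12, 22 and 2 with STM2457, which is 68.7, 80.3 and 64.5 CPM against 0.256, 0.471 and 0.0394 CPM. The treated SK-N-BE2 libraries and the third treated NGP library held almost no KLHDC7B reads, while the other two treated NGP libraries held a few more. Means were 16.9 ± 1.55 and 0.0503 ± 0.0204 CPM for SK-N-BE2 and 71.2 ± 8.22 and 0.255 ± 0.216 CPM for NGP (SD, n = 3). The log2 fold change was -8.35 (SE 0.23) for SK-N-BE2 and -8.16 (SE 0.41) for NGP, again a description with no test. The NGP fold change was -8.92 without STM2457 replicate 2. In SK-N-BE2, with 4, 2 and 2 treated reads, the SE understates the uncertainty, and the exact interval that follows is wider. By group mean CPM, 0.297% of the DMSO level was left for SK-N-BE2 and 0.359% for NGP. Summed reads gave ratios of 334 (95% exact interval 170.0 to 776) and 285 (206 to 407).

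**Figure D1:**
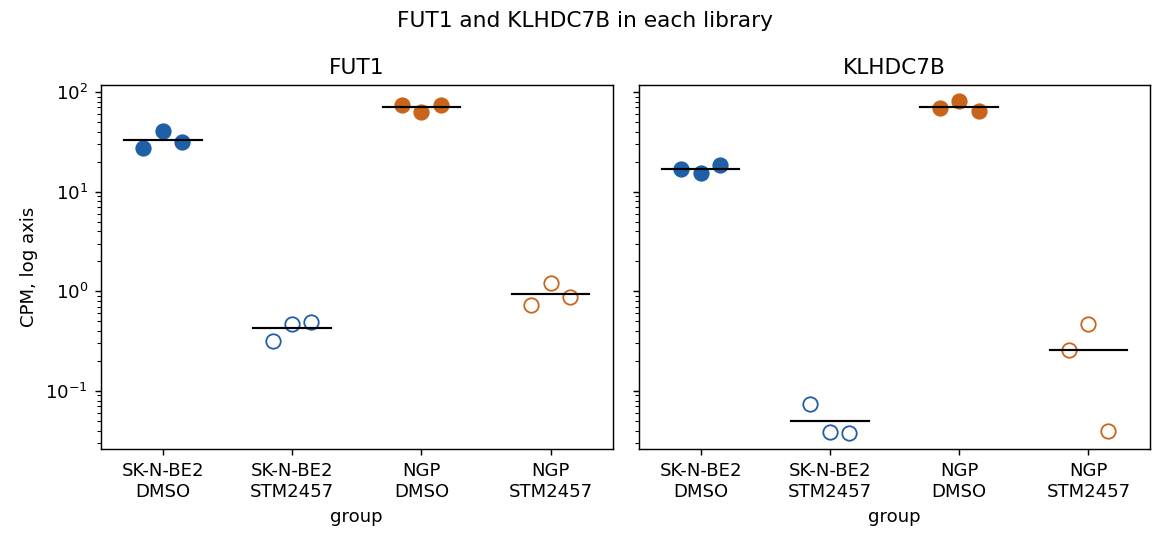
Level of FUT1 (left) and KLHDC7B (right) in each library, in CPM on a log axis, by line and treatment; points are single libraries and bars are group means of 3. All treated libraries lie below 1.3 CPM for FUT1 and below 0.5 CPM for KLHDC7B, and the third treated NGP library lies apart from the other two for KLHDC7B.

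The order of the groups was NGP with DMSO, SK-N-BE2 with DMSO, NGP with STM2457 and SK-N-BE2 with STM2457 for both genes. For FUT1 no neighbouring groups in this order overlapped. For KLHDC7B the last 2 groups overlapped, since the lowest NGP library had 0.0394 CPM and the highest SK-N-BE2 library 0.0739 CPM. Levels in DMSO were compared between lines in a fit to all 12 libraries. The DMSO libraries are also an arm of the contrasts that chose the genes, so these values are a description with no test for FUT1 and KLHDC7B. Here 71.1% of the 14731 genes tested differed at an adjusted p under 0.05. FUT1 was lower in SK-N-BE2 than in NGP by 2.12-fold (log2 difference -1.08, SE 0.16), and KLHDC7B by 4.2-fold (log2 difference -2.07, SE 0.22). In both cases the 3 SK-N-BE2 controls lay below the 3 NGP controls. Per kilobase of exon, FUT1 had a mean level of 7.6 CPM against 3.3 CPM for KLHDC7B in SK-N-BE2 with DMSO, and 16.1 against 13.9 CPM in NGP with DMSO. The response differed between lines by -0.05 (SE 0.29) on the log2 scale for FUT1 and by -0.18 (SE 0.62) for KLHDC7B, SK-N-BE2 minus NGP, while 30.9% of all genes tested differed at an adjusted p under 0.05.

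Among all genes ordered by log2 fold change from the lowest, FUT1 stood 15th of 14013 for SK-N-BE2 and 9th of 13610 for NGP, and KLHDC7B stood 5th and 2nd. Genes called lower made up 27.8% of those tested for SK-N-BE2 and 22.2% for NGP, and 10.8% of the 12952 genes tested in both lines were lower in both. Among genes whose mean DMSO level reached 10 CPM in each line, ordered by the smaller of their falls, the first 4 were KLHDC7B (-8.16), GDF15 (-6.59), FGF21 (-6.42) and FUT1 (-6.24). The next genes in that order, just outside, were ATF5 (-4.13), INHBE (-4.04), TRIB3 (-3.61) and SESN2 (-3.44). These log2 values are given as a description, since the same contrasts made the order.

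The nearest gene to FUT1 fell as well. FGF21, at chr19:48755524-48758333 on the plus strand, was singled out with its fall known. In SK-N-BE2 it had 861, 955 and 1009 reads with DMSO and 0, 2 and 0 with STM2457. In NGP it had 810, 603 and 755 reads with DMSO and 8 in each library with STM2457. The treated and control libraries were far apart in both lines. In NGP the mean level went from 14.2 ± 2.19 to 0.167 ± 0.00766 CPM (log2 fold change -6.42, SE 0.23), a description with no test. Only 2 reads were left of 2825 in SK-N-BE2, a ratio of 1401 with a 95% exact interval of 387 to 11574. The responses of FGF21 differed by -3.81, SK-N-BE2 minus NGP (SE 0.72), also a description, and this value rests on those 2 reads. FGF21 in DMSO was 17.9 ± 2.43 CPM for SK-N-BE2 and 14.2 ± 2.19 CPM for NGP, a difference that did not pass the test (log2 0.33, edgeR adjusted p = 0.107), whereas FUT1 was lower in SK-N-BE2. No exon bases of FUT1 or FGF21 overlap another annotated gene, so strandless counting did not mix their reads through shared exons.

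On the other side of FUT1, 1101 bases away, lies IZUMO1, which encodes a sperm protein that binds the egg. IZUMO1 was read at a low level. In SK-N-BE2 it fell from 38, 28 and 48 reads to 9, 11 and 15 (log2 fold change -1.71, SE 0.42, edgeR adjusted p = 0.00355). In NGP it had 44, 66 and 58 reads with DMSO and 46, 57 and 64 with STM2457 (log2 fold change 0.05, SE 0.28, edgeR adjusted p = 0.906). The groups overlapped in NGP, and the difference between the responses was -1.75 (edgeR adjusted p = 0.012).

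Over the 55 genes within 500 kb of FUT1, 22 of 36 tested were called in SK-N-BE2 (61.1%, with 7 higher and 15 lower), against 54.7% of all genes tested in that line. In NGP 16 of 35 were called (45.7%, 7 higher and 9 lower), against 41.7% of all genes. The median log2 fold change of these neighbours was -0.33 for SK-N-BE2 and -0.02 for NGP, beside -0.02 and -0.03 over all genes. The NGP count was 10 without DMSO replicate 3, STM2457 replicate 1 or STM2457 replicate 3, each left out in turn. Over all genes 5671 were called in NGP, and 3816 to 7897 with single libraries left out. Called lower were 41.7% of those tested in SK-N-BE2 and 25.7% in NGP, against 27.8% and 22.2% of all genes. Closer to FUT1, within 250 kb, 16 of 20 tested were called in SK-N-BE2 (80%, 12 of them lower) and 12 of 21 in NGP (57.1%, 8 of them lower), both larger shares than over all genes. Lower in both lines were 6 of the 20 tested in both (30%), against 10.8% of all genes, FGF21 among them. Without FGF21 the counts within 500 kb were 21 of 35 and 15 of 34.

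Of 33 neighbours tested in both lines, 8 were called in the same direction in both and 3, TMEM143, SPHK2 and FTL, in opposite directions. FGF21, PPP1R15A, HSD17B14, CA11, BCAT2 and RASIP1 fell in both, which is 18.2% of the 33, against 10.8% of all genes. PPP1R15A, a regulatory subunit that directs a phosphatase to the translation factor eIF2 alpha, lies 117 kb from FUT1. It fell from 102 ± 16.5 to 16.6 ± 1.65 CPM in SK-N-BE2 (log2 fold change -2.65, edgeR adjusted p = 4.04e-09) and from 98.9 ± 14.7 to 16.2 ± 3.08 CPM in NGP (-2.63, adjusted p = 2.15e-05). Its libraries ran from 83.2 to 115 CPM with DMSO and from 13.0 to 19.1 CPM with STM2457 over both lines, with no overlap. The RefSeq window of PPP1R15A held TGACGTCA, the full cyclic AMP response element, 58 bases before the start and no TGATGNAA.

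The other neighbours that fell in both lines moved much less than FUT1, which was chosen for its steep fall. HSD17B14, a steroid dehydrogenase, changed by -1.17 for SK-N-BE2 and -1.22 for NGP (log2, edgeR adjusted p = 0.000772 and 0.00408). CA11, a carbonic anhydrase-related protein, changed by -0.50 and -1.74 (adjusted p = 0.000659 and 0.000868). BCAT2, the mitochondrial branched-chain aminotransferase, changed by -0.48 and -0.94 (edgeR adjusted p = 0.00113 and 0.00205). RASIP1, a Ras-interacting protein of endothelial cells and the next gene beyond IZUMO1, changed by -0.65 and -1.11 (edgeR adjusted p = 0.0205 and 0.0179). The RASIP1 call was lost without SK-N-BE2 DMSO replicate 3, STM2457 replicate 1 or STM2457 replicate 2 (edgeR adjusted p up to 0.104), and without NGP DMSO replicate 3, STM2457 replicate 1 or STM2457 replicate 3 (up to 0.0628). BAX, which permeabilises mitochondria in apoptosis, and CYTH2, an exchange factor for ARF GTPases, rose in both lines. BAX changed by 0.93 for SK-N-BE2 and 0.80 for NGP (edgeR adjusted p = 3.67e-06 and 0.0171) and CYTH2 by 0.44 and 0.59 (edgeR adjusted p = 0.000625 and 0.0153). In NGP both calls were lost without DMSO replicate 3 or STM2457 replicate 1, BAX also without STM2457 replicate 3 and CYTH2 also without STM2457 replicate 2 (edgeR adjusted p up to 0.0685 for BAX and 0.0631 for CYTH2).

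KLHDC7B lies between SYCE3, whose 3′ end faces it 88 bases away, and ODF3B at 13.3 kb. SYCE3 encodes a protein of the meiotic synaptonemal complex and was too low to be tested, with 12, 10 and 8 reads in SK-N-BE2 with DMSO, 2, 0 and 2 with STM2457, 7, 5 and 9 in NGP with DMSO and 2, 2 and 8 with STM2457. The ratio of DMSO to STM2457 from the summed SYCE3 reads was 7.44 (95% exact interval 2.62 to 29.1) for SK-N-BE2 and 1.65 (0.776 to 3.68) for NGP. ODF3B, named for an outer dense fibre protein, did not pass the test in either line (log2 fold change 0.18 and 0.10, edgeR adjusted p = 0.613 and 0.857), and 14% of its exon bases overlap other genes, so its reads are uncertain.

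Within 500 kb of KLHDC7B there are 30 counted genes. In SK-N-BE2 12 of 26 tested were called (46.2%, 3 higher and 9 lower), and in NGP 9 of 26 (34.6%, 4 higher and 5 lower), in both lines a smaller share than the 54.7% and 41.7% over all genes. The shares called lower were 34.6% in SK-N-BE2 and 19.2% in NGP, against 27.8% and 22.2% of all genes. The medians were -0.22 and -0.01, beside -0.02 and -0.03 over all genes. The NGP count was 4 without DMSO replicate 3, 4 without STM2457 replicate 1 and 5 without STM2457 replicate 3. NGP calls over all genes ranged from 3816 to 7897 in such fits. ADM2, MIOX, MOV10L1 and MAPK8IP2 were lower in both lines (15.4% of the 26 tested, against 10.8%) and 1 gene, TUBGCP6, was called in opposite directions.

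ADM2 and MIOX are themselves neighbours, 59.5 and 55.2 kb from KLHDC7B. ADM2 encodes a secreted peptide of the calcitonin family. Its level was 97.7, 111 and 113 CPM in SK-N-BE2 with DMSO and 1.61, 1.56 and 2.21 CPM with STM2457. In NGP it was 89.8, 78.7 and 75.2 CPM with DMSO and 11.0, 14.5 and 9.41 CPM with STM2457. Treated libraries lay below controls in both lines, and lower in SK-N-BE2 than in NGP. In SK-N-BE2 the log2 fold change of ADM2 was -5.94 with an SE of 0.14 (edgeR adjusted p = 4.53e-12), in NGP -2.83 with an SE of 0.17 (adjusted p = 1.48e-05), and the responses differed by -3.09 (SE 0.23, adjusted p = 5.97e-07). MIOX, the oxygenase that opens the ring of myo-inositol, was low in DMSO, at 2.39 ± 0.41 CPM for SK-N-BE2 and 1.0 ± 0.611 CPM for NGP. Its summed reads went from 377 to 6 in SK-N-BE2 (log2 fold change -5.92, edgeR adjusted p = 6.24e-07) and from 153 to 14 in NGP (-3.37, adjusted p = 0.00683). Without SK-N-BE2 STM2457 replicate 1 the MIOX value was -6.82, and without NGP STM2457 replicate 3 it was -4.50. The MIOX responses did not differ past the threshold (-2.54, edgeR adjusted p = 0.105). The RefSeq windows of ADM2 and MIOX held none of the 4 motifs searched.

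MOV10L1, a helicase of the germline piRNA pathway 384.2 kb away, changed by -1.97 in SK-N-BE2, where its replicates overlapped between groups, and by -3.29 in NGP (edgeR adjusted p = 0.0145 and 0.00108). The SK-N-BE2 call of MOV10L1 was lost without DMSO replicate 2, STM2457 replicate 1 or STM2457 replicate 3 (edgeR adjusted p up to 0.0891). MAPK8IP2, a scaffold of JNK signalling 49.8 kb away, changed by -0.25 and -0.55 (edgeR adjusted p = 0.0468 and 0.0261) with overlapping replicates in both lines. The MAPK8IP2 call was lost in SK-N-BE2 with DESeq2 size factors (adjusted p = 0.0532) and without DMSO replicate 2, DMSO replicate 3, STM2457 replicate 2 or STM2457 replicate 3 (edgeR adjusted p up to 0.221). It was lost in NGP without DMSO replicate 3, STM2457 replicate 1 or STM2457 replicate 3 (edgeR adjusted p up to 0.103).

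**Figure D2:**
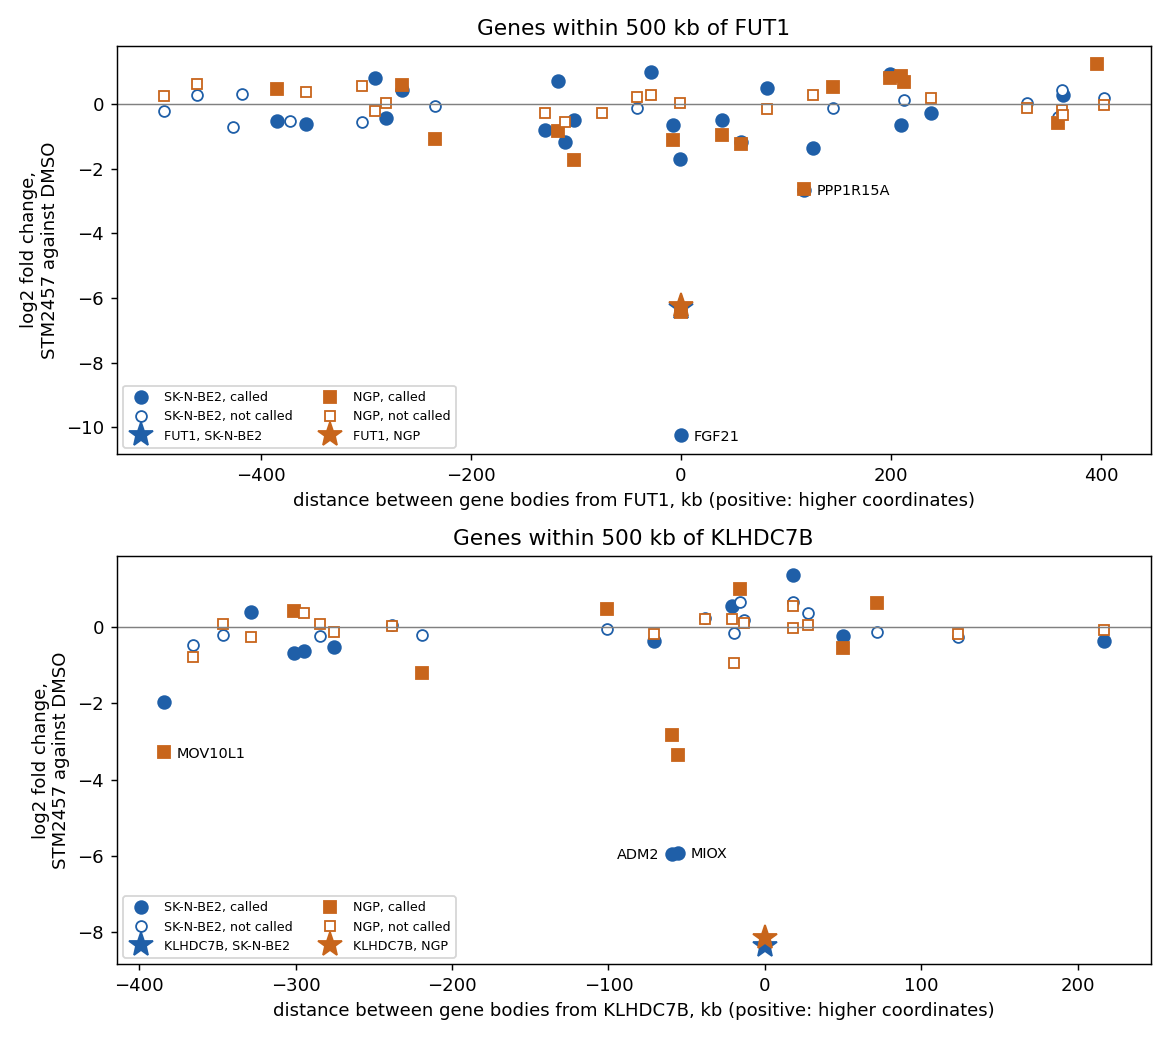
Log2 fold change with STM2457 (vertical axis) of each tested gene within 500 kb of FUT1 (top) and KLHDC7B (bottom), against the distance in kb between gene bodies (0 is the member, stars); circles are SK-N-BE2, squares are NGP, and filled symbols were called. FGF21 beside FUT1 and ADM2 and MIOX near KLHDC7B stand far below 0 while most other neighbours lie near it; the SK-N-BE2 value of FGF21 is a fitted value from 2 treated reads and marks no exact fold.

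Gene structure and composition did not enter the choice of the members. The exons of FUT1 sum to 4343 bases and those of KLHDC7B to 5125, beside a median of 5278 over the 12952 genes tested in both lines. KLHDC7B has 1 exon block after merging all transcripts and FUT1 has 4, whereas the median gene has 11. The longest block of KLHDC7B spans 5125 bases, longer than in 87.8% of genes, and that of FUT1 spans 3273 bases, longer than in 69.0%. Exonic GC content was 66.52% in KLHDC7B, above 98.2% of genes, and 56.99% in FUT1, above 76.4%. N6-methyladenosine is written within the DRACH motif, in which D is any base but C, R is A or G and H is any base but G. FUT1 held 70 such motifs and KLHDC7B 82, or 16.12 and 16.0 per kilobase of exon, below the median of 18.2. Only 23.5% and 22.3% of genes had a lower density. A motif count says nothing on whether a site was methylated, which was not measured in these libraries.

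No other gene of fucose transfer that was tested was lower by as much as FUT1, which was chosen for its steep fall. Of the 30 other genes of the list, which covers fucosyltransferases, the supply of GDP-fucose, fucosidases and the enzymes that build acceptor chains, 27 were tested in SK-N-BE2 and 16 were called (59.3%, 7 higher and 9 lower). In NGP 22 were tested and 7 called (31.8%, 3 higher and 4 lower). The shares over all genes were 54.7% and 41.7%, and the list medians were -0.03 and -0.18. The NGP count was 4 without DMSO replicate 3, 2 without STM2457 replicate 1, 3 without STM2457 replicate 2 and 2 without STM2457 replicate 3. NGP calls over all genes ranged from 3816 to 7897 in such fits. FUT2, the closest paralogue of FUT1 and the secretor enzyme, lies 42.1 kb from FUT1 and is expressed at a low level. It is among the neighbours of FUT1 counted above. In SK-N-BE2 the FUT2 level was 0.752, 0.684 and 0.497 CPM with DMSO against 0.591, 0.547 and 0.704 CPM with STM2457. In NGP it was 5.98, 3.5 and 4.03 CPM against 5.81, 4.77 and 5.54 CPM. The groups overlapped in both lines and neither difference passed the test (log2 fold change -0.11 and 0.23, edgeR adjusted p = 0.812 and 0.436). Without NGP DMSO replicate 1, FUT2 in NGP was 0.49 (edgeR adjusted p = 0.0354).

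Among the transferases 4 of 10 tested were called for SK-N-BE2 (40%) and 3 of 7 for NGP (42.9%), against 54.7% and 41.7% of all genes. FUT3, a Lewis antigen fucosyltransferase that stayed under 1 CPM, gave -2.76 in SK-N-BE2 from 49 and 7 summed reads (edgeR adjusted p = 0.0055) and was not tested in NGP. FUT11 was higher in NGP (log2 fold change 0.68, edgeR adjusted p = 0.00647), as was FUT10 (0.73, edgeR adjusted p = 0.0396), both members of the family that have been assigned to protein fucosylation. The FUT10 call was lost without STM2457 replicate 1, 2 or 3 of NGP, each left out in turn (edgeR adjusted p up to 0.106), and 11.9% of FUT11 exon bases overlap other genes. Of the 6 genes that supply or transport GDP-fucose, 4 were called for SK-N-BE2 (66.7%) and 2 for NGP (33.3%), all lower, where 27.8% and 22.2% of all genes were called lower. FPGT, which makes GDP-fucose in the salvage pathway, was lower in both lines (-0.86 and -0.53, edgeR adjusted p = 2.23e-05 and 0.0499), and 10.8% of its exon bases overlap other genes. The NGP call of FPGT was lost with DESeq2 size factors (edgeR adjusted p = 0.057), with a minimum mean of 1 CPM (0.0519), and without DMSO replicate 2, DMSO replicate 3 or any of the 3 STM2457 replicates (up to 0.168). GMDS, TSTA3 and FCSK, which act in the de novo and salvage routes, were lower in SK-N-BE2, with log2 fold changes of -0.65, -0.69 and -0.32 (edgeR adjusted p = 0.000564, 1.48e-05 and 0.0127). In NGP these genes gave -0.27, -0.22 and -0.19 (edgeR adjusted p = 0.17, 0.341 and 0.283).

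Both fucosidases, FUCA1 and FUCA2, which remove fucose, were higher in SK-N-BE2 (0.43 and 0.28, edgeR adjusted p = 0.0415 and 0.0122) and were not tested in NGP. Of the acceptor-chain genes 6 of 9 were called for SK-N-BE2 (66.7%) and 2 of 9 for NGP (22.2%), against 54.7% and 41.7% of all genes. B3GNT5, which starts the lacto-series glycolipids, rose from 4.07 ± 0.383 to 11.8 ± 0.41 CPM in SK-N-BE2 (log2 fold change 1.49, edgeR adjusted p = 7.65e-07), with 16.2% of its exon bases shared with other genes. B3GALT2, a galactosyltransferase, rose from 1.13 ± 0.216 to 2.36 ± 0.631 CPM in SK-N-BE2 (1.03, edgeR adjusted p = 0.00535). B4GALT1 and B4GALT2, which add galactose, moved in opposite directions in the lines. B4GALT1 changed by -0.52 for SK-N-BE2 and 0.52 for NGP (edgeR adjusted p = 0.000398 and 0.018) and B4GALT2 by 0.74 and -0.43 (edgeR adjusted p = 1.14e-05 and 0.0254).

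The other kelch genes that were tested moved less than KLHDC7B, which was chosen for its steep fall. Of the 15 others of the list, made of KLHDC genes and cullin ligase subunits, 7 of 14 tested were called in SK-N-BE2 (50%, 4 higher and 3 lower). In NGP 3 of 13 were called (23.1%), and these 3 were lower. Over all genes 54.7% and 41.7% were called, and the list medians were -0.01 and -0.23. Without NGP DMSO replicate 1 the NGP count was 9. Over all genes 5671 were called in NGP, and 3816 to 7897 with single libraries left out, so such shifts are not particular to this list. KLHDC7A, the closest paralogue, was too low to be tested, with at most 4 reads in a library. KLHDC8B was lower in both lines, from 68.5 ± 7.39 to 28.5 ± 1.22 CPM in SK-N-BE2 (log2 fold change -1.30, edgeR adjusted p = 2.06e-07) and from 30.3 ± 7.83 to 10.4 ± 1.03 CPM in NGP (-1.57, adjusted p = 0.000375). KLHDC9 was lower in SK-N-BE2 (-1.49, edgeR adjusted p = 2.27e-05) and gave -0.59 in NGP (adjusted p = 0.343). KLHDC8A rose in SK-N-BE2 but fell in NGP (1.01 and -0.95, edgeR adjusted p = 0.000138 and 0.00318), and the responses differed by 1.97 (adjusted p = 2.7e-05). KLHDC2, a substrate receptor that reads the C-terminal end of proteins, showed the same split (0.41 and -1.06, edgeR adjusted p = 0.00177 and 0.000236), but 47.6% of its exon bases overlap other genes, so its reads are uncertain. Of 6 cullin ligase subunits CUL2 was higher (0.43, edgeR adjusted p = 0.000612) and ELOB lower (-0.51, adjusted p = 0.00171) in SK-N-BE2.

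**Figure D3:**
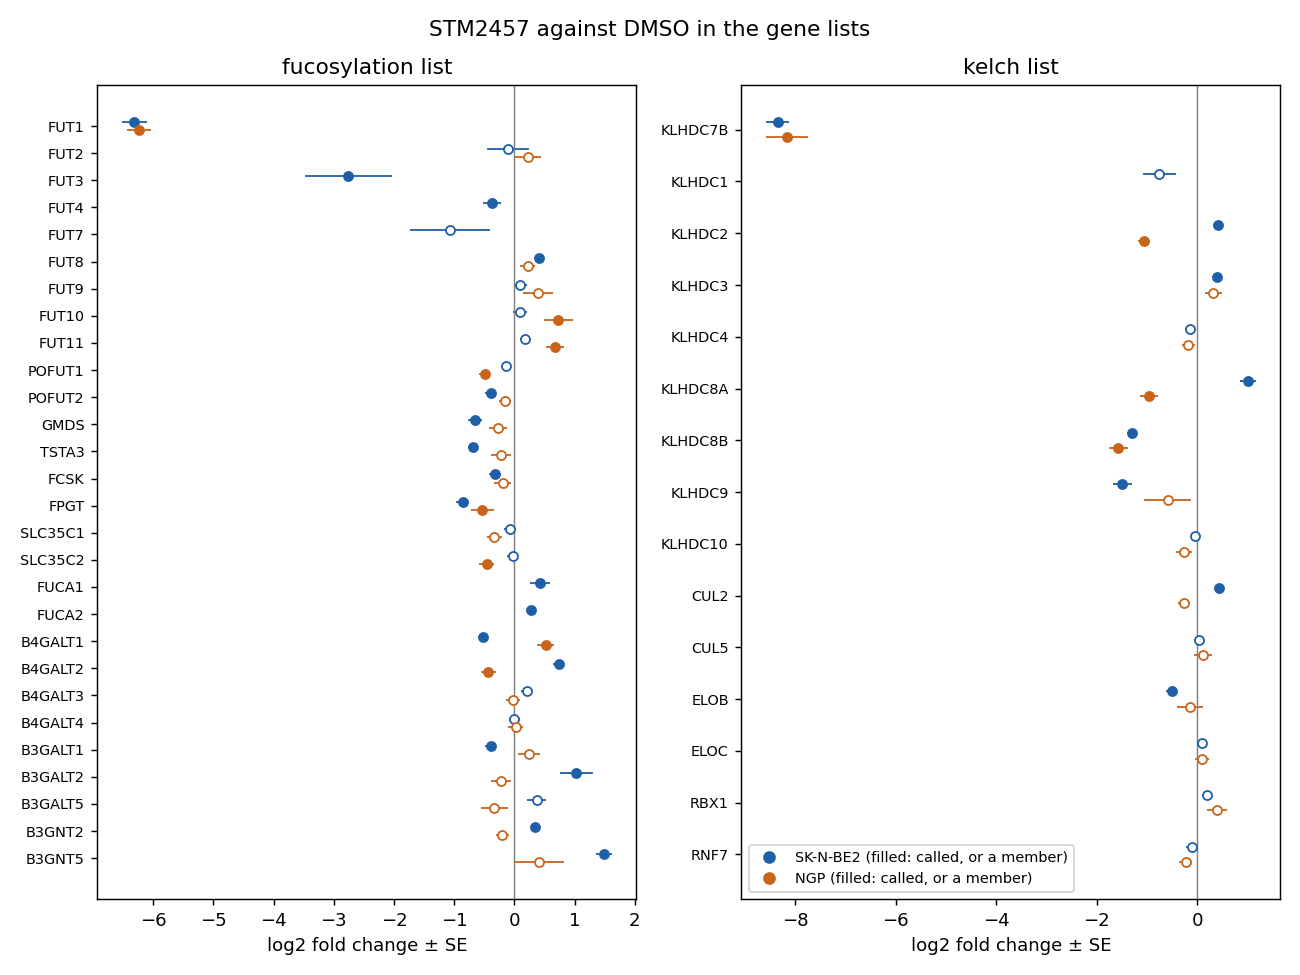
Log2 fold change with STM2457, with its SE (horizontal axis), of each tested gene of the fucosylation list (left) and the kelch list (right); blue is SK-N-BE2, orange is NGP, and filled points were called or are FUT1 or KLHDC7B. FUT1 and KLHDC7B lie below -6 and -8, and the other genes lie between -3 and 2.

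Profiles over the 12 libraries were compared as log2(CPM + 0.5) relative to the DMSO mean of the same line, among 11403 genes with at least 1 CPM in DMSO in both lines. The gene closest to FUT1 was KLHDC7B, on another chromosome, with a root mean square difference of 0.559 (Pearson r 0.987). GDF15, a stress-induced hormone of the TGF-beta family, followed at 0.583 (r 0.991), then FGF21 at 0.604 (r 0.985). ATF5, a transcription factor of the bZIP class, stood at 0.799 (r 0.98) and TRIB3, a pseudokinase, at 0.878 (r 0.983). For KLHDC7B the same 5 places went to FUT1 (0.559), GDF15 (0.76), TRIB3 (1.09), FGF21 (1.11) and ATF5 (1.28). The points share the step between DMSO and STM2457, so every r here mainly repeats that step. The added 0.5 CPM limits how far the lowest genes can fall. FUT1 and KLHDC7B were both chosen for steep falls in both lines. Their nearness to each other and to other steeply falling genes follows largely from that choice, so these ranks are a description. GDF15, at chr19:18374731-18389176, had a log2 fold change of -6.59 for SK-N-BE2 and -6.73 for NGP, with 141, 153 and 203 CPM falling to 2.12, 1.56 and 1.58 CPM in SK-N-BE2. In NGP it went from 71.8, 59.8 and 51.7 CPM to 0.299, 0.77 and 0.67 CPM. ATF5 gave -5.03 and -4.13 and TRIB3 gave -3.61 and -5.07 on the log2 scale, and 22.1% of ATF5 exon bases overlap other genes. These genes were picked by likeness to a fall, so their values are a description too. The GDF15 window held CCAAT 103 bases before the start, and the windows of ATF5 and TRIB3 held none of the 4 motifs.

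**Figure D4:**
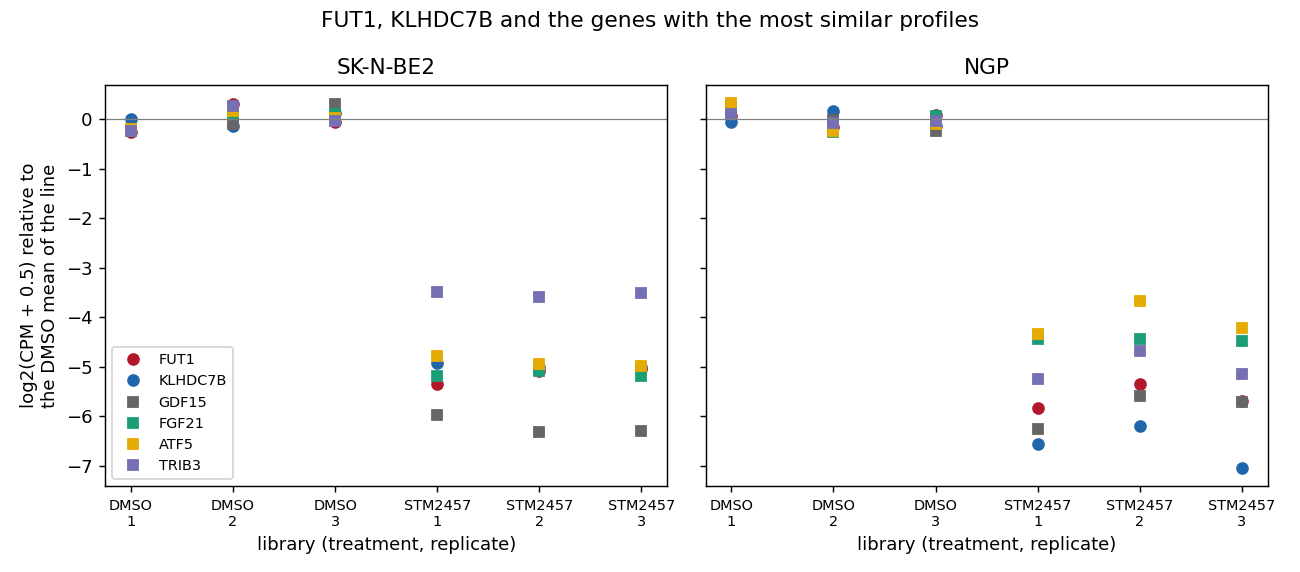
Level of FUT1 and KLHDC7B (circles) and of the genes with the most similar profiles (squares) in each library (horizontal axis), as log2(CPM + 0.5) relative to the DMSO mean of the line. In SK-N-BE2 FUT1 and KLHDC7B sit together near -5 with STM2457, where the added 0.5 CPM limits the fall. In NGP KLHDC7B lies lower than FUT1 in each of the 3 treated libraries.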

How the data were processed

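The submitters' processing notes name FastQC 0.11.5, Trimmomatic 0.36, HISAT2 2.1.0 and Subread 1.5.3 and the build GRCh38/hg38. The file headers record featureCounts 2.0.5 with exons of GENCODE 33 protein-coding genes, with no strand setting and without counting read pairs as fragments. The deposited values are raw read counts per gene made by the authors. Libraries came from poly(A) RNA, per the labels' protocols. Genes were filtered with filterByExpr (minimum count 10) and scaled by TMM, and each line was tested on its 6 libraries with edgeR 4.0.16 (R 4.3.3, quasi-likelihood test, Benjamini-Hochberg adjustment over all genes tested, called at an adjusted p under 0.05). DMSO levels and differences of responses came from 1 fit to 12 libraries. Each SE is the absolute log2 fold change divided by the square root of the F statistic of the fit. The fits were tested on simulated data. Alternatives were DESeq2 1.42.0 and its size factors, other filters, windows of 250 and 1000 kb, a minimum log2 fold change of 1, a replicate block, halved counts (added after seeing the data) and leaving out each library. Positions, distances and exon blocks came from the count files, with GENCODE 33 genes. Exon overlaps were taken against GENCODE 44, where 19033 of 19923 gene names were found. Promoter windows are RefSeq's.

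Genes named were FUT1, KLHDC7B, FGF21, METTL3, FUT2 and KLHDC7A, the nearest gene on each side, neighbours within 500 kb called the same way in both lines or with the 2 largest changes in a line, up to 3 called genes per list and line with at least 1 CPM, and the 5 most similar profiles. Outside that rule, TMEM143, SPHK2, FTL, TUBGCP6, INHBE, SESN2, FUT3, GMDS, TSTA3, FCSK, FUCA1, FUCA2, B4GALT1, B4GALT2, CUL2 and ELOB were chosen after their values were seen. The members and lists were chosen with earlier results of these data known. One marker gene of the list is not reported here.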

Additional observations from a re-analysis of the deposited data

Results flagged for a closer look

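Several genes named beside FUT1 and KLHDC7B responded differently in the lines by the test of the difference itself (SK-N-BE2 minus NGP, log2, edgeR adjusted p under 0.05, as for 30.9% of all genes). The values were -3.81 for FGF21, -3.09 for ADM2, -1.75 for IZUMO1, -0.88 for ATF5, -0.49 for FUT11 and -0.39 for METTL3. They were 1.97 for KLHDC8A, 1.48 for TRIB3, 1.47 for KLHDC2, 1.26 for CA11 and 1.26 for B3GALT2. FGF21, ATF5 and TRIB3 were picked with their falls in view, so their values here are a description. ADM2, KLHDC8A, KLHDC2, B3GALT2 and FUT11 were named at least in part for large changes in a line. Their differences between lines are therefore not independent of that choice. That of FGF21 rests on 2 treated reads in SK-N-BE2. Line, dose and sequencing run cannot be told apart in these differences.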

How the results depend on the processing

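FUT1 and KLHDC7B kept their direction under each of the alternatives run. With each library left out in turn, FUT1 ranged from -6.43 to -6.12 (SK-N-BE2) and -6.45 to -6.09 (NGP), KLHDC7B from -8.72 to -8.19 and from -8.92 to -7.63, and the DMSO level differences from -1.23 to -0.93 for FUT1 and from -2.13 to -1.97 for KLHDC7B. Called neighbours ranged from 19 to 24 (SK-N-BE2) and 10 to 21 (NGP) for FUT1 and from 8 to 13 and 4 to 12 for KLHDC7B, fucosylation genes from 13 to 16 and 2 to 9, and kelch genes from 7 to 8 and 3 to 9. Over all genes the number called ranged from 6497 to 7849 and 3816 to 7897 in the same fits. A window of 1000 kb gave 36 of 61 and 26 of 59 tested neighbours of FUT1 called (59% and 44.1%). A window of 250 kb gave 16 of 20 and 12 of 21 for FUT1 (80% and 57.1%) and 7 of 18 in each line for KLHDC7B (38.9%). Over all genes 54.7% and 41.7% were called. A minimum absolute log2 fold change of 1 left 7 of 36 and 7 of 35 neighbours of FUT1 and 4 of 26 in each line for KLHDC7B. The share of all genes passing that minimum is not given here, so these counts have no comparison.

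Values that changed sign with a library left out passed no threshold: FUT2 in SK-N-BE2 ranged from -0.27 to 0.02 (0.02 without DMSO replicate 1), IZUMO1 in NGP from -0.09 to 0.18 (-0.09 without DMSO replicate 1, -0.02 without STM2457 replicate 3) and ODF3B in NGP from -0.13 to 0.58 (-0.13 and -0.06 without DMSO replicates 2 and 3); the cause was not tested. Of the single-gene values under an alternative, 682 kept their call and direction, 36 lost the call and 1 gained it.

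Replicate numbers do not show paired samples, since the correlation of same-numbered deviations ran from -0.188 to 0.131. With the replicate number as a block, FUT1 was -6.30 and -6.25 and KLHDC7B -8.36 and -8.21, the DMSO differences were -1.11 and -2.06, and 22 and 14, 13 and 9, 16 and 5, and 8 and 3 genes were called in the 4 sets above. The block ended the calls of MAPK8IP2 in SK-N-BE2 (edgeR adjusted p = 0.0527) and FPGT in NGP (edgeR adjusted p = 0.0572) and no other named call. Low counts in the treated libraries, 2 to 22 reads for KLHDC7B and 0 to 8 for FGF21, limit how exactly their fold changes can be given.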

Other observations

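The classes below were drawn after the values of FUT1 and KLHDC7B were seen, and they are descriptions with no test. Of 291 genes tested in both lines with TGATGNAA in a promoter window, 35.7% were called lower for SK-N-BE2 and 28.9% for NGP, against 27.1% and 21.4% of the 10037 genes whose windows hold no match. A fall of at least 4-fold was seen in 19 of the 291 (6.53%) for SK-N-BE2 and 15 (5.15%) for NGP, against 1.29% and 1.88% of the others. The class medians were -0.05 and -0.12 on the log2 scale, close to 0, so the falls concern a minority of these genes. FUT1 and KLHDC7B were left out of the class, whereas FGF21 is among the 291.

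Genes with long or single exon blocks, as in FUT1 and KLHDC7B, gave the values that follow. The 4018 genes whose longest exon block is at least as long as that of FUT1 had medians of 0.03 and -0.02, with 25% and 21.1% called lower. The 317 genes with a single exon block had medians of -0.11 and 0.03, with 28.1% and 19.6% called lower. Over all 12952 genes tested in both lines, 27.5% and 22.0% were called lower.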
